A study of Homo sapiens with 12 samples.

Results

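The genes described here encode the J-domain co-chaperones of the DNAJA, DNAJB and DNAJC classes and the subunits of the cytosolic chaperonin TRiC. They were taken by symbol, as every gene whose name starts with DNAJA, DNAJB or DNAJC and a number, the CCT genes numbered 2 to 8, and TCP1. This gave 54 of the 27505 features of the count table, with 4 DNAJA, 12 DNAJB, 29 DNAJC and 9 TRiC genes. All 54 were found in GENCODE v29. Their RNA was measured in 2 established human retinoblastoma lines, WERI-Rb-1 (WERI) and Y79, both labelled as wild type in genotype. WERI and Y79 cultures had been kept for 12 h in 50 nM THZ1, which binds the transcription kinase CDK7 covalently and can also hit CDK12 and CDK13, or in 0.1% DMSO, the solvent. There were 3 cultures of WERI with THZ1, 3 of WERI with DMSO, 3 of Y79 with THZ1 and 3 of Y79 with DMSO, described as biological repeats. Total RNA was sequenced from each culture, and the comparisons ask what THZ1 did to transcripts in each line.

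J-domain proteins recruit HSP70 chaperones to unfolded or newly made proteins. Their J domain carries a conserved histidine, proline and aspartate motif that makes HSP70 hydrolyse ATP and close on its client. DNAJA and DNAJB proteins mostly act in general folding, in the cytosol, the endoplasmic reticulum or the mitochondrion, whereas DNAJC proteins share only the J domain and bring HSP70 to particular tasks such as the uncoating of vesicles. TRiC, also called CCT, is a double-ring chaperone of related but distinct subunits that folds actin and tubulin. Retinoblastoma lines carry markers of photoreceptors, cells whose synapses rely on vesicle J proteins such as DNAJC5.

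Heat shock factors bind repeats of a short inverted sequence in promoters, so promoter stretches that hold it are shown for a gene that was lower after THZ1 in both lines (DNAJB1), a gene lower by unequal amounts (DNAJA1), a gene that passed the test in neither line (DNAJB6) and TRiC genes with unlike results (CCT2 and TCP1). The sequences are those of RefSeq for GRCh38.p14, on the strand of the gene and 5′ to 3′, and capitals mark GAANNTTC or TTCNNGAA, both of which read the same on both strands.
DNAJB1: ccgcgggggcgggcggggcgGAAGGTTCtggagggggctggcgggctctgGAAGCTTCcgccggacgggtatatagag
DNAJA1: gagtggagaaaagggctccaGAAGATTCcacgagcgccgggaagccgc
DNAJB6: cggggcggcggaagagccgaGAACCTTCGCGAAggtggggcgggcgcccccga
CCT2: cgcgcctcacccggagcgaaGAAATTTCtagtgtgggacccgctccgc
TCP1: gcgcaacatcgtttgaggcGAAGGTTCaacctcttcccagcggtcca
The DNAJB1 stretch lies on chromosome 19 (14518417 to 14518494), from 97 to 20 bases before a start site, and holds 2 matches. The DNAJA1 stretch lies on chromosome 9 (33025055 to 33025102) and ends 171 bases before the start site. Only matches before a start site are shown. DNAJA1 also has a GAANNTTC and a TTCNNGAA match that begin 3 and 8 bases after its start site and overlap. DNAJB1 also has a GAANNTTC match that begins 1 base after another of its start sites. The DNAJB6 stretch lies on chromosome 7 (157336853 to 157336905), and there the 2 forms overlap. The CCT2 stretch lies on chromosome 12 (69585780 to 69585827) and the TCP1 stretch on chromosome 6 (159789806 to 159789852), each with 1 match.

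Of the 54 genes, 49 were matched to RefSeq promoters of 300 bases (250 before and 50 after the start site). CCT6A, DNAJC1, DNAJC22, DNAJC24 and DNAJC5B were not in that table. A GAANNTTC or TTCNNGAA match was found for 12 of the 49 genes (24.5%), against 16.2% of the 27305 genes of the table. By class it was found for 2 of 4 DNAJA genes, 4 of 12 DNAJB genes, 2 of 25 DNAJC genes and 4 of 8 TRiC genes (CCT2, CCT4, CCT6B and TCP1). CCAAT, a common promoter box, was found on either strand for 22 of the 49 (44.9%), against 39.7% of all genes. The endoplasmic reticulum stress element, which contains CCAAT and was also searched on both strands, was found for none of the 49 genes and for 25 genes of the table. Of the 12 genes with a heat shock motif, DNAJA1, DNAJB1, DNAJC6, CCT2 and CCT4 were called lower after THZ1 in both lines, TCP1 was lower in WERI, and DNAJB7 was higher in both under TMM. The others (DNAJA4, DNAJB4, DNAJB6, DNAJC15 and CCT6B) were called in neither line, and the matches were not tested against the responses. With or without a match, 18 of 43 tested DNAJ genes and 3 of 9 TRiC genes were lower in both lines. Of all genes tested, 30.9% were lower in both lines and 21.8% higher in both.

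Libraries held from 29677575 to 37433574 counts. THZ1 replicate 2 of Y79 stood apart from the other Y79 THZ1 libraries, at a chi-square of 69.6 and 70.7 per degree of freedom against them, where the other pairs of one group reached 13.4 at most. Results for Y79 that rest on it are therefore given with and without it. All 11 photoreceptor markers were detected in every group, and their summed level ranged from 2654 to 2777 CPM in WERI with THZ1 and from 3048 to 3155 CPM in WERI with DMSO, and from 2558 to 2767 CPM in Y79 with THZ1 and from 2265 to 2279 CPM in Y79 with DMSO. Single markers moved in opposite directions within this sum. OTX2 averaged 325 ± 11.6 CPM in WERI with THZ1 and 940 ± 26.8 CPM with DMSO. In Y79 it averaged 159 ± 14.6 CPM with THZ1 and 610 ± 14.0 CPM with DMSO. AIPL1 moved the other way, at 897 ± 42.3 CPM in WERI with THZ1 and 437 ± 13.2 CPM with DMSO. Its Y79 averages were 1666 ± 58 CPM with THZ1 and 684 ± 5.19 CPM with DMSO. Summed glial markers lay between 16.7 and 18.4 CPM in WERI with THZ1 and between 40.4 and 49.3 CPM in WERI with DMSO, and between 111 and 164 CPM in Y79 with THZ1 and between 172 and 202 CPM in Y79 with DMSO, with S100B at 0 in all 4 groups. VIM made up nearly all of the glial sum, at 16.4 ± 0.820 CPM in WERI with THZ1 and 42.3 ± 4.10 CPM in WERI with DMSO, and at 130 ± 29.4 CPM in Y79 with THZ1 and 189 ± 15.4 CPM in Y79 with DMSO. The 9 markers of stroma and blood summed to between 59.1 and 61.7 CPM in WERI with THZ1 and between 26.3 and 30.6 CPM in WERI with DMSO, and to between 29.7 and 46.1 CPM in Y79 with THZ1 and between 10.4 and 13.4 CPM in Y79 with DMSO. Their sum was thus above that of the DMSO cultures in both lines after THZ1, and the endothelial marker CDH5 was at 0 in every group but WERI with DMSO. Most of the sum in WERI was COL1A1, at 52.4 ± 1.42 CPM with THZ1 and 24.8 ± 1.42 CPM with DMSO. Most of it in Y79 was HBA1, at 28.7 ± 10.1 CPM with THZ1 and 8.95 ± 1.04 CPM with DMSO. The 5 markers of pigment epithelium summed to between 8.06 and 41.0 CPM in WERI with THZ1 and between 4.84 and 12.8 CPM in WERI with DMSO, and to between 14.4 and 45.7 CPM in Y79 with THZ1 and between 6.01 and 11.5 CPM in Y79 with DMSO, with TYR at 0 in all 4 groups. BEST1 was the highest of these 5 in WERI, at 24.2 ± 16.8 CPM with THZ1 and 5.94 ± 3.98 CPM with DMSO. It was also the highest in Y79 with THZ1, at 20.7 ± 18.0 CPM. The part of all these marker levels in the results below was not tested. CPM are counts relative to the library total, scaled by TMM, a method which sets the bulk of genes to no change, errors of group means are SD over 3 cultures, and errors of log2 fold changes are SE.

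The DNAJ classes together took a smaller share of all counts after THZ1 in both lines, and TRiC fell by less. DNAJ transcripts made up 0.167% of counts in WERI with THZ1 and 0.261% in WERI with DMSO. In Y79 they made up 0.0995% of counts with THZ1 and 0.214% with DMSO. The DNAJA class showed the widest gap, at 0.0223% in WERI with THZ1 against 0.0566% in WERI with DMSO, and at 0.00804% in Y79 with THZ1 against 0.0497% in Y79 with DMSO. TRiC transcripts made up 0.253% of counts in WERI with THZ1 and 0.330% in WERI with DMSO, and 0.253% in Y79 with THZ1 and 0.355% in Y79 with DMSO. In all of these pairs the highest THZ1 library lay below the lowest DMSO library. The typical gene also fell on this scale. With library size alone, the median log2 fold change of all genes tested was -0.56 in WERI and -0.65 in Y79. A smaller share is thus not in itself particular to these classes. Mitochondrially encoded mRNAs, which another polymerase makes, took 10.6% of counts in WERI with THZ1 and 3.87% in WERI with DMSO, and 9.28% in Y79 with THZ1 and 4.20% in Y79 with DMSO, and their part in these shares is set out among the alternatives at the end. In bulk RNA, fewer transcripts per cell and fewer cells that hold them cannot be told apart.

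Per gene, the changes ran in both directions. In WERI, THZ1 was followed by 12 higher and 22 lower transcripts among 43 tested DNAJ genes, and by 3 higher and 4 lower among 9 TRiC genes (adjusted p under 0.05, edgeR quasi-likelihood test). The background was 64.8% of all tested genes called, 27.7% higher and 37.2% lower. At least a 2-fold change was met by 5 higher and 8 lower DNAJ genes, against 11.3% and 16.7% of all genes, and CCT4 was the TRiC gene that met it. In Y79, 10 DNAJ genes were higher and 22 lower, and 3 TRiC genes were higher and 3 lower, against 68.3% of all genes called, 29.9% higher and 38.5% lower. At least 2-fold were 3 higher and 11 lower DNAJ genes, against 14.4% and 19.9%, and CCT2 among TRiC genes. By class, 3 of 4 DNAJA genes were lower, 4 of 11 DNAJB genes were higher and 5 lower, and 8 of 28 DNAJC genes were higher and 14 lower in WERI. The median log2 fold change of DNAJ genes was -0.31 in WERI and -0.42 in Y79, that of TRiC genes 0.02 and -0.16, and that of all 14865 genes tested -0.11 and -0.09. These splits depend on the scaling. With TMM 42.7% of all called genes were higher in WERI, with library size alone 21.8% and with scaling to mitochondrially encoded mRNAs 0.826%, and in Y79 these shares were 43.7%, 20.7% and 2.27%. A gene given as higher below is therefore higher than the typical gene, and all TRiC and DNAJ genes called higher under TMM had a negative log2 fold change under mitochondrial scaling in WERI and, but for DNAJB13 and DNAJC5G, in Y79.

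**Figure D1:**
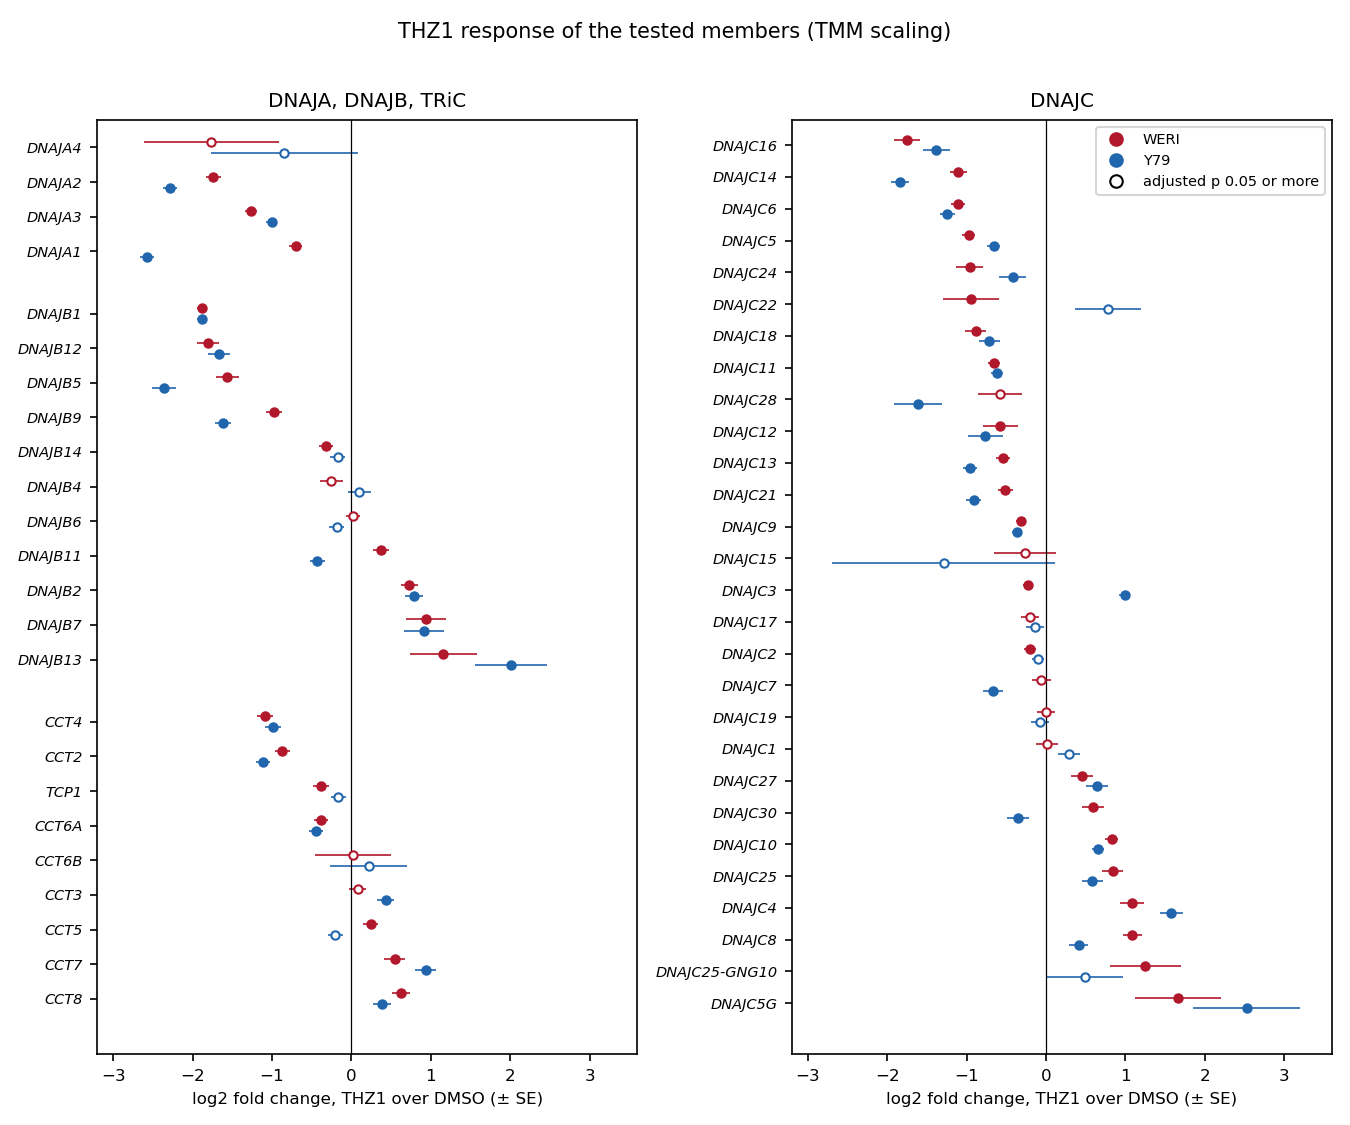
Log2 fold change of each tested gene (x axis, THZ1 over DMSO, TMM scaling, with SE bars) in WERI (red) and Y79 (blue), by class; open circles have an adjusted p of 0.05 or more. DNAJA genes lie left of 0 in both lines, whereas DNAJB, DNAJC and TRiC genes lie on both sides, and those on the right move left of 0 in WERI under mitochondrial scaling.

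Under TMM, 18 of the 43 DNAJ genes were lower in both lines, 9 higher in both, and 3 called in opposite directions (DNAJC3, DNAJB11 and DNAJC30). Of all genes tested, 30.9% were lower in both lines, 21.8% higher in both and 1.74% called in opposite directions. The opposite directions of DNAJC30 rest on a Y79 call that held in 7 of 18 alternatives to the settings used, leaving aside library size alone and mitochondrial scaling, and those of DNAJC3 on a WERI call that held in 15 of them. Among TRiC genes, CCT2, CCT4 and CCT6A were lower in both lines and CCT7 and CCT8 higher in both. The 7 DNAJ genes called in neither line were DNAJA4, DNAJB4, DNAJB6, DNAJC1, DNAJC15, DNAJC17 and DNAJC19.

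The main general co-chaperones of cytosolic HSP70, DNAJA1, DNAJA2 and DNAJB1, fell in both lines, under each of the scalings tried. DNAJB1, the classical stress-inducible HSP40, had 34.0, 32.4 and 32.3 CPM in WERI with THZ1 and 123, 118 and 122 CPM in WERI with DMSO. The Y79 cultures had 25.4, 28.6 and 27.9 CPM with THZ1 and 104, 102 and 96.2 CPM with DMSO. Treated and control cultures were far apart in both lines, and the fall was of the same size: the log2 fold change was -1.88 ± 0.07 in WERI (adjusted p = 1.42e-10) and -1.88 ± 0.07 in Y79 (adjusted p = 6.73e-11), with a difference between the lines of 0.00 ± 0.09 (adjusted p = 1).

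DNAJA1, a cytosolic class A partner of HSP70, gave another picture. It had 195, 182 and 195 CPM in WERI with THZ1 and 308, 320 and 301 CPM in WERI with DMSO. Y79 gave 44.3, 51.0 and 39.6 CPM with THZ1 and 263, 262 and 275 CPM with DMSO. The DMSO levels of the lines were close, and the treated levels were not. DNAJA1 fell by 0.70 ± 0.08 on the log2 scale in WERI (adjusted p = 4.05e-06) and by 2.57 ± 0.09 in Y79 (adjusted p = 4.17e-11), a 1.62-fold and a 5.94-fold fall. The difference between these changes was -1.87 ± 0.12 (adjusted p = 2.12e-06), and 2.15% of the genes tested had a difference at or below it. Without THZ1 replicate 2 of Y79 the fall in Y79 was 2.70. GENCODE holds 6 pseudogenes named after DNAJA1 and 1 each named after DNAJB1, DNAJB5 and DNAJC8. The treatment of reads shared with them is not stated.

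DNAJA2, its close relative in the cytosol, had 16.9, 19.1 and 17.9 CPM in WERI with THZ1 and 64.9, 58.4 and 56.7 CPM in WERI with DMSO. In Y79 it had 17.2, 19.8 and 17.5 CPM with THZ1 and 89.0, 95.3 and 81.0 CPM with DMSO. The treated levels of the lines were thus alike, and the DMSO levels were not. On the log2 scale the change was -1.74 ± 0.09 in WERI (adjusted p = 2.57e-09) and -2.29 ± 0.09 in Y79 (adjusted p = 1.78e-10), and the difference of -0.55 ± 0.13 passed the test (adjusted p = 0.00898). The balance of the pair moved in opposite ways: counts of DNAJA1 over DNAJA2 averaged 10.6 ± 1.01 in WERI with THZ1 and 5.18 ± 0.388 in WERI with DMSO, and 2.47 ± 0.182 in Y79 with THZ1 and 3.04 ± 0.330 in Y79 with DMSO. Such a ratio within a library does not depend on the scaling, and these pairs were chosen after their values were seen.

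DNAJA4, the remaining cytosolic class A gene, was close to absent, at no more than 23 counts in any library. Its log2 fold changes of -1.77 ± 0.85 in WERI (adjusted p = 0.0887) and -0.85 ± 0.93 in Y79 (adjusted p = 0.452) did not pass the test.

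Close relatives of DNAJB1 differed. DNAJB5, a cytosolic class B protein, averaged 8.20 ± 0.745 CPM in WERI with THZ1 and 24.2 ± 1.62 CPM in WERI with DMSO. In Y79 it averaged 3.20 ± 0.718 CPM with THZ1 and 16.5 ± 1.17 CPM with DMSO. It fell by 1.56 ± 0.14 on the log2 scale in WERI (adjusted p = 3.48e-07) and by 2.36 ± 0.15 in Y79 (adjusted p = 9.69e-09). DNAJB4, of the same branch, averaged 29.9 ± 3.94 CPM in WERI with THZ1 and 35.7 ± 3.67 CPM in WERI with DMSO, and 18.0 ± 3.90 CPM in Y79 with THZ1 and 16.8 ± 0.261 CPM in Y79 with DMSO. Its groups overlapped and it was not called in either line (adjusted p = 0.144 in WERI and 0.585 in Y79).

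DNAJB6, which holds back the aggregation of polyglutamine proteins, averaged 95.0 ± 3.51 CPM in WERI with THZ1 and 94.0 ± 0.441 CPM in WERI with DMSO. In Y79 it averaged 91.4 ± 14.2 CPM with THZ1 and 104 ± 2.46 CPM with DMSO. The groups overlapped in both lines, with log2 fold changes of 0.01 ± 0.09 in WERI (adjusted p = 0.903) and -0.19 ± 0.09 in Y79 (adjusted p = 0.0787). In Y79 the outcome hung on 1 library: without THZ1 replicate 2, DNAJB6 was lower by 0.35 on the log2 scale and passed the test (adjusted p = 2.03e-05). With library size alone the WERI value was -0.43.

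DNAJB2, a co-chaperone with ubiquitin-interacting motifs that is abundant in neurons, was the cytosolic gene that rose. It had 197, 186 and 205 CPM in WERI with THZ1 and 115, 120 and 120 CPM in WERI with DMSO. The Y79 cultures had 53.7, 76.1 and 56.8 CPM with THZ1 and 36.8, 33.7 and 37.6 CPM with DMSO. The groups did not overlap in either line, and the log2 fold change was 0.73 ± 0.11 in WERI (adjusted p = 3.49e-05) and 0.79 ± 0.11 in Y79 (adjusted p = 1.85e-05), or 0.59 without THZ1 replicate 2 of Y79. Under mitochondrial scaling these values were -1.17 in WERI and -0.92 in Y79. Counts of DNAJB2 over DNAJB1 averaged 5.95 ± 0.336 in WERI with THZ1 and 0.977 ± 0.0446 in WERI with DMSO, and 2.27 ± 0.341 in Y79 with THZ1 and 0.359 ± 0.0296 in Y79 with DMSO.

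DNAJC7 links HSP70 to HSP90. It averaged 129 ± 6.14 CPM in WERI with THZ1 and 134 ± 8.80 CPM in WERI with DMSO, with overlapping groups (adjusted p = 0.711). Y79 gave 51.7, 69.5 and 44.0 CPM with THZ1 and 89.6, 90.1 and 83.2 CPM with DMSO, a fall of 0.67 ± 0.13 on the log2 scale (adjusted p = 0.000301), or 0.90 without THZ1 replicate 2. Of the 9 DNAJ genes of cytosolic folding (DNAJA1, DNAJA2, DNAJA4, DNAJB1, DNAJB2, DNAJB4, DNAJB5, DNAJB6 and DNAJC7), 1 was higher and 4 lower in WERI, and 1 higher and 5 lower in Y79. Of all genes, 27.7% were higher and 37.2% lower in WERI, and 29.9% were higher and 38.5% lower in Y79.

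**Figure D2:**
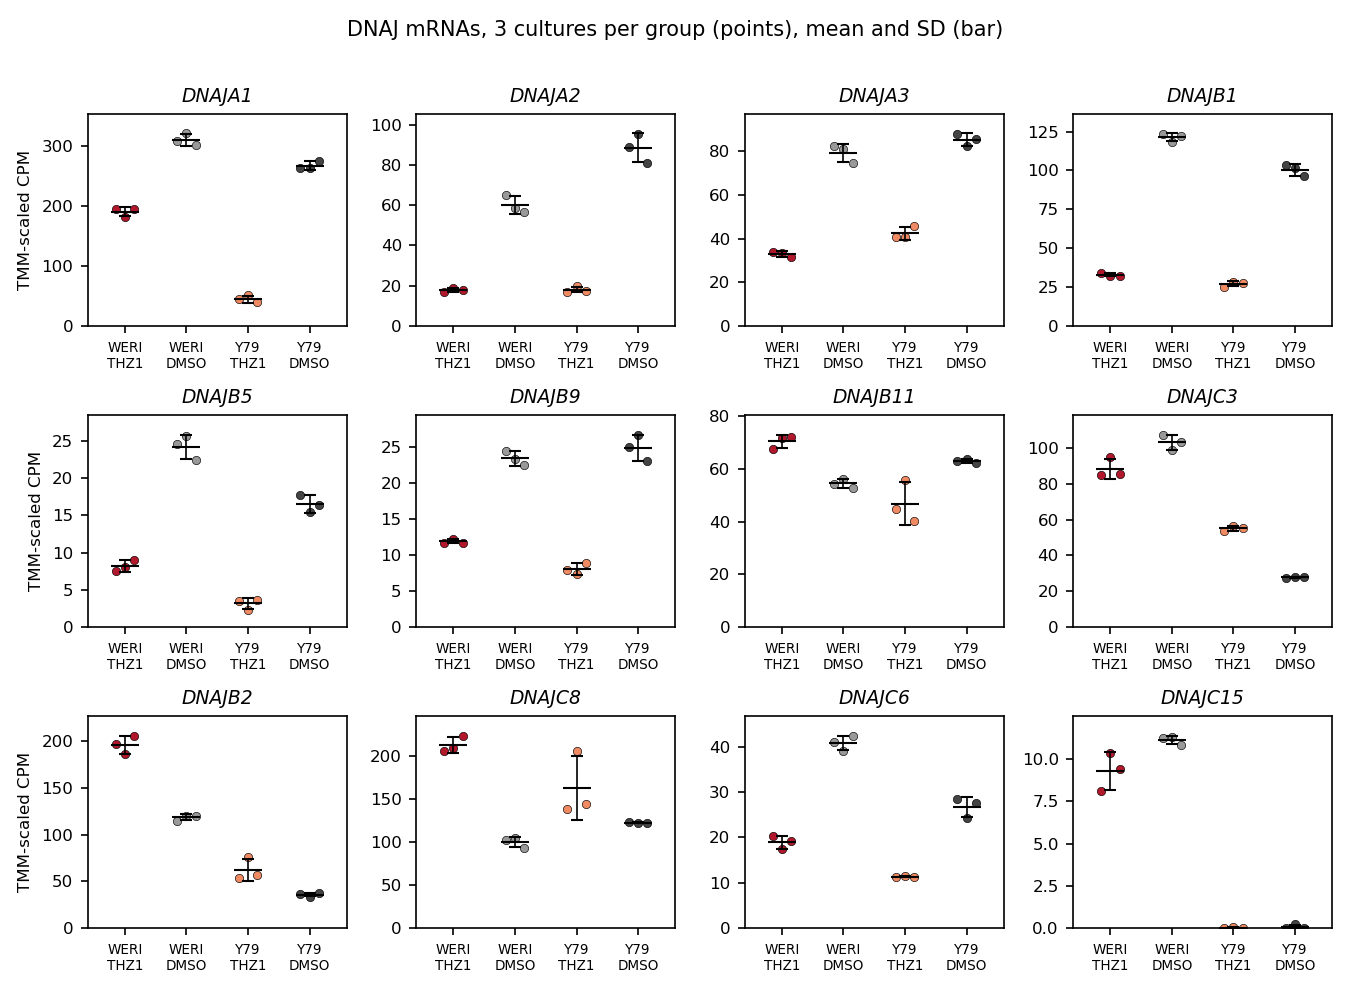
Level of 12 DNAJ genes (y axes, TMM-scaled CPM) in each culture (points) of the 4 groups, with the mean and SD. The DNAJA1 level after THZ1 averaged 191 CPM in WERI and was at most 51.0 CPM in Y79, and DNAJC3 moved in opposite directions in the lines under TMM scaling.

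Of 7 co-chaperones of the endoplasmic reticulum (ER), 2 were higher and 4 lower in WERI, against 27.7% and 37.2% of all genes, and Y79 had 2 higher and 3 lower, beside 29.9% and 38.5%. DNAJC3, also called p58IPK, binds the luminal HSP70 BiP and unfolded proteins. It had 85.0, 94.9 and 85.4 CPM in WERI with THZ1 and 107, 98.9 and 103 CPM in WERI with DMSO. In Y79 it had 53.6, 56.4 and 55.2 CPM with THZ1 and 27.5, 27.8 and 27.9 CPM with DMSO. Every treated Y79 culture lay above, and every treated WERI culture below, the DMSO cultures of its line. The log2 fold change was -0.22 ± 0.06 in WERI (adjusted p = 0.0083) and 0.99 ± 0.07 in Y79 (adjusted p = 1.43e-08), and the difference of 1.21 ± 0.09 passed the test (adjusted p = 7.16e-06). The fall in WERI was lost with RLE factors (-0.14, adjusted p = 0.0805), and under mitochondrial scaling DNAJC3 in Y79 was at -0.72.

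DNAJB11, another luminal partner of BiP, moved the other way. It had 67.5, 71.8 and 71.9 CPM in WERI with THZ1 and 54.2, 56.2 and 52.9 CPM in WERI with DMSO. The Y79 cultures had 44.6, 55.6 and 40.1 CPM with THZ1 and 63.0, 63.6 and 62.1 CPM with DMSO. On the log2 scale the change was 0.37 ± 0.10 in WERI (adjusted p = 0.004), turning to -0.08 with library size alone, and -0.43 ± 0.10 in Y79 (adjusted p = 0.00144). Counts of DNAJC3 over DNAJB11 averaged 1.26 ± 0.0674 in WERI with THZ1 and 1.90 ± 0.122 in WERI with DMSO, and 1.20 ± 0.182 in Y79 with THZ1 and 0.441 ± 0.00788 in Y79 with DMSO, so this ratio was close in the treated lines and far apart in the controls.

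DNAJB9, a small ER co-chaperone that dampens the stress sensor IRE1, averaged 11.9 ± 0.281 CPM in WERI with THZ1 and 23.4 ± 0.987 CPM in WERI with DMSO. In Y79 it averaged 8.09 ± 0.794 CPM with THZ1 and 24.9 ± 1.82 CPM with DMSO. The fall was 0.98 ± 0.10 on the log2 scale in WERI (adjusted p = 1.08e-06) and 1.62 ± 0.10 in Y79 (adjusted p = 7.38e-09). DNAJB12, an ER membrane protein whose J domain faces the cytosol, averaged 8.82 ± 1.48 CPM in WERI with THZ1 and 30.8 ± 1.54 CPM in WERI with DMSO. In Y79 it averaged 10.2 ± 1.77 CPM with THZ1 and 32.3 ± 1.52 CPM with DMSO, and the log2 fold change was -1.80 ± 0.14 in WERI (adjusted p = 7.51e-08) and -1.67 ± 0.14 in Y79 (adjusted p = 1.18e-07). Its relative DNAJB14 differed by far less, at -0.32 ± 0.09 in WERI (adjusted p = 0.00585) and -0.17 ± 0.09 in Y79 (adjusted p = 0.108). DNAJC10, an ER disulfide reductase, was named for its rise after the values were seen, with log2 fold changes of 0.83 ± 0.08 in WERI (adjusted p = 5.98e-07) and 0.66 ± 0.08 in Y79 (adjusted p = 5.04e-06), against -1.07 and -1.06 under mitochondrial scaling.

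Among mitochondrial members, DNAJA3, a matrix co-chaperone, averaged 32.9 ± 1.25 CPM in WERI with THZ1 and 79.2 ± 4.24 CPM in WERI with DMSO. In Y79 it averaged 42.4 ± 3.03 CPM with THZ1 and 85.1 ± 2.86 CPM with DMSO. It fell by 1.27 ± 0.07 on the log2 scale in WERI (adjusted p = 5.97e-09) and by 1.01 ± 0.07 in Y79 (adjusted p = 3.06e-08). DNAJC11, a protein of the mitochondrial membranes, was also lower in both lines, at -0.65 ± 0.07 and -0.62 ± 0.07, and 27.9% of its exon bases are shared with THAP3 on the other strand, which these unstranded counts cannot separate. DNAJC19, of the inner membrane, was at -0.00 ± 0.11 in WERI (adjusted p = 0.987) and -0.07 ± 0.11 in Y79 (adjusted p = 0.613), with 9 pseudogenes named after it.

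DNAJC15, a J protein of the mitochondrial inner membrane, was nearly missing from 1 line. It had 231, 305 and 273 counts in WERI with THZ1 and 478, 464 and 498 counts in WERI with DMSO. Y79 gave 0, 2 and 0 counts with THZ1 and 0, 9 and 0 counts with DMSO. On the CPM scale WERI with THZ1 averaged 9.28 ± 1.13 and WERI with DMSO 11.1 ± 0.247, and the change was not called (adjusted p = 0.591). The fitted log2 difference of Y79 over WERI in DMSO was -7.18 ± 0.61 (adjusted p = 2.98e-07), a value that depends on the prior count, and no response can be read in Y79 at these counts.

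Of 4 tested genes of vesicles and endosomes, 3 were lower in both lines (DNAJC5, DNAJC6 and DNAJC13) and DNAJC5G was higher, where 30.9% of all genes were lower in both lines and 21.8% higher in both. DNAJC6, or auxilin, strips clathrin from endocytic vesicles in neurons. It averaged 19.0 ± 1.40 CPM in WERI with THZ1 and 40.8 ± 1.61 CPM in WERI with DMSO, and 11.3 ± 0.0836 CPM in Y79 with THZ1 and 26.8 ± 2.18 CPM in Y79 with DMSO. The log2 fold change was -1.11 ± 0.09 in WERI (adjusted p = 1.17e-07) and -1.24 ± 0.09 in Y79 (adjusted p = 3.75e-08). DNAJC5, the cysteine string protein of synaptic vesicles, averaged 46.7 ± 4.94 CPM in WERI with THZ1 and 91.5 ± 3.14 CPM in WERI with DMSO, and 91.8 ± 4.90 CPM in Y79 with THZ1 and 145 ± 8.20 CPM in Y79 with DMSO. It fell by 0.97 ± 0.08 on the log2 scale in WERI (adjusted p = 1.73e-07) and by 0.66 ± 0.08 in Y79 (adjusted p = 5.66e-06). The level of DNAJC5 in Y79 with THZ1 was thus that of WERI with DMSO. DNAJC13, of early endosomes, fell by 0.55 ± 0.09 in WERI and by 0.96 ± 0.09 in Y79.

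DNAJC5G, a relative of DNAJC5, had the highest log2 fold change of the DNAJC class, at 1.66 ± 0.54 in WERI (adjusted p = 0.0164) and 2.53 ± 0.67 in Y79 (adjusted p = 0.00457), against -0.23 and 0.85 under mitochondrial scaling. It rested on few reads, with 58, 53 and 50 counts in WERI with THZ1 and 33, 15 and 28 counts in WERI with DMSO. In Y79 it had 15, 8 and 16 counts with THZ1 and 0, 6 and 5 counts with DMSO. The WERI call was lost without THZ1 replicate 1 (adjusted p = 0.0526) or without DMSO replicate 2 (adjusted p = 0.0699).

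Of 5 genes of the nucleus and the ribosome, 1 was higher and 3 lower in WERI, against 27.7% and 37.2% of all genes, and Y79 had 1 higher and 2 lower, beside 29.9% and 38.5%. DNAJC8, a spliceosome-associated protein, had 206, 210 and 224 CPM in WERI with THZ1 and 102, 105 and 93.5 CPM in WERI with DMSO. The Y79 cultures had 139, 206 and 144 CPM with THZ1 and 123, 123 and 122 CPM with DMSO, where THZ1 replicate 2 was the high culture. On the log2 scale the change was 1.09 ± 0.12 in WERI (adjusted p = 2.45e-06) and 0.41 ± 0.12 in Y79 (adjusted p = 0.00776), or 0.18 without that culture. It reached -0.81 in WERI and -1.30 in Y79 under mitochondrial scaling, and -0.17 in Y79 with library size alone.

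DNAJC9, a chaperone of histones H3 and H4, averaged 63.2 ± 1.95 CPM in WERI with THZ1 and 78.5 ± 0.529 CPM in WERI with DMSO, and 66.3 ± 3.41 CPM in Y79 with THZ1 and 85.3 ± 2.41 CPM in Y79 with DMSO. These were small falls of 0.31 ± 0.06 (adjusted p = 0.000492) and 0.36 ± 0.06 (adjusted p = 0.00013), and 24.0% of its exon bases overlap FAM149B1 on the other strand. DNAJC2, which sits on the ribosome near the exit of the new chain, was at -0.20 ± 0.07 in WERI (adjusted p = 0.0337) and -0.10 ± 0.07 in Y79 (adjusted p = 0.231), and the WERI call was lost with RLE factors (adjusted p = 0.21), with DESeq2 (adjusted p = 0.198) and without THZ1 replicate 1 or 3 or DMSO replicate 1 or 3 of WERI (adjusted p up to 0.122). DNAJC17, a splicing-related protein, was at -0.20 ± 0.11 in WERI (adjusted p = 0.141) and -0.14 ± 0.11 in Y79 (adjusted p = 0.299). DNAJC21, needed for the assembly of large ribosomal subunits, fell by 0.51 ± 0.09 in WERI and by 0.91 ± 0.09 in Y79.

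Of the other DNAJC genes, DNAJC4 was more than 2-fold higher in both lines under TMM. It had 16.6, 15.6 and 15.9 CPM in WERI with THZ1 and 7.09, 8.05 and 7.63 CPM in WERI with DMSO. Y79 gave 25.2, 37.9 and 27.3 CPM with THZ1 and 9.32, 9.28 and 11.6 CPM with DMSO. The log2 fold change was 1.08 ± 0.15 in WERI (adjusted p = 2.29e-05) and 1.58 ± 0.15 in Y79 (adjusted p = 4.19e-07), or 1.35 without THZ1 replicate 2 of Y79, and under mitochondrial scaling it was -0.82 and -0.13. Its exons overlap those of NUDT22 on the same strand for 10.6% of their bases.

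Falls of at least 2-fold in both lines were also seen for DNAJC16 and DNAJC14. DNAJC16 had 8.26, 5.62 and 5.69 CPM in WERI with THZ1 and 22.2, 20.2 and 23.3 CPM in WERI with DMSO, and averaged 6.94 ± 1.02 CPM in Y79 with THZ1 and 18.1 ± 2.49 CPM in Y79 with DMSO. DNAJC14 averaged 20.3 ± 2.57 CPM in WERI with THZ1 and 43.7 ± 2.85 CPM in WERI with DMSO. It had 13.9, 12.7 and 15.5 CPM in Y79 with THZ1 and 49.6, 47.0 and 53.8 CPM in Y79 with DMSO. Of its exon bases 23.2% are shared with AC023055.1 on the same strand. On the other strand 21.95% are shared with ORMDL2 and 12.91% with TMEM198B. The log2 fold changes of DNAJC16 were -1.75 ± 0.17 in WERI and -1.38 ± 0.17 in Y79, and those of DNAJC14 -1.11 ± 0.11 and -1.84 ± 0.11. DNAJC28 passed the test in Y79 (-1.61 ± 0.31, adjusted p = 0.000354, against -0.58 ± 0.28, adjusted p = 0.0892, in WERI). The difference between the lines was not called (-1.04, adjusted p = 0.0987), but it was called without THZ1 replicate 2 of Y79 (-1.54, adjusted p = 0.00244). The read-through gene DNAJC25-GNG10 shares 75.3% of its exon bases with GNG10 and the rest with DNAJC25, its groups overlapped, and its WERI call (1.25 ± 0.45, adjusted p = 0.0273) was lost without THZ1 replicate 3 (0.77, adjusted p = 0.168) or DMSO replicate 2 or 3 of WERI (adjusted p = 0.102 and 0.1). DNAJB13, an axonemal protein of cilia and sperm with the highest log2 fold change of the DNAJB class, was at 1.16 ± 0.43 in WERI (adjusted p = 0.0303) and 2.01 ± 0.45 in Y79 (adjusted p = 0.00137) with no library above 63 counts. Of the exon bases of DNAJB13, 22.99% are shared with AP003717.1 on the other strand. The WERI call of DNAJB13 was lost without THZ1 replicate 1 or 3 or DMSO replicate 2 or 3 (adjusted p up to 0.112), and both values move to -0.74 and 0.32 under mitochondrial scaling.

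The remaining DNAJ genes are given as values chosen after they were seen. DNAJC18 (-0.88 and -0.71) and DNAJC12 (-0.57 and -0.77), the co-chaperone of aromatic amino acid hydroxylases, were called lower in WERI and Y79. The WERI call of DNAJC12 (adjusted p = 0.04) held in 6 of the 18 alternatives other than library size alone and mitochondrial scaling, with an adjusted p of up to 0.163. DNAJC24, which acts in diphthamide synthesis, fell by 0.96 in WERI and was at -0.42 in Y79, where its call held in 7 of the 18 (adjusted p up to 0.124). DNAJC25 (0.84 and 0.58), DNAJB7 (0.93 and 0.91) and DNAJC27 (0.45 and 0.64), a Rab-like GTPase with a J domain, were higher in WERI and Y79 under TMM, with values from -1.45 to -0.79 under mitochondrial scaling. XPNPEP3 on the other strand shares 24.24% of the exon bases of DNAJB7. DNAJC1, an ER membrane protein, was at 0.01 ± 0.13 in WERI (adjusted p = 0.947) and 0.29 ± 0.14 in Y79 (adjusted p = 0.0855). DNAJC30, a mitochondrial protein, averaged 10.8 ± 0.412 CPM in WERI with THZ1 and 7.14 ± 0.911 CPM in WERI with DMSO, and 8.38 ± 1.13 CPM in Y79 with THZ1 and 10.7 ± 0.846 CPM in Y79 with DMSO. Its log2 fold changes were 0.59 ± 0.14 in WERI (adjusted p = 0.00194), turning to -1.31 under mitochondrial scaling, and -0.35 ± 0.14 in Y79 (adjusted p = 0.0416), a call that held in 7 of the same 18 alternatives (adjusted p up to 0.146). DNAJC22 had no more than 84 counts in a library and was at -0.95 ± 0.36 in WERI (adjusted p = 0.0334) and at 0.78 ± 0.41 in Y79 (adjusted p = 0.115), and its WERI call held in 12 of the 18 (adjusted p up to 0.117).

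DNAJB8 and DNAJC5B were removed by the filter on low counts, with 2 counts in 1 library of WERI with THZ1 as the most that either had.

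The subunits of TRiC assemble in equal numbers, yet their mRNAs split after THZ1. CCT2 and CCT4 fell in both lines, CCT7 and CCT8 rose relative to the typical gene, and the others lay between. CCT4 had 116, 120 and 121 CPM in WERI with THZ1 and 252, 261 and 247 CPM in WERI with DMSO. In Y79 it had 156, 201 and 142 CPM with THZ1 and 335, 335 and 315 CPM with DMSO. On the log2 scale the change was -1.09 ± 0.10 in WERI (adjusted p = 4.81e-07) and -0.99 ± 0.10 in Y79 (adjusted p = 1e-06). CCT2 had 94.8, 96.5 and 106 CPM in WERI with THZ1 and 183, 178 and 182 CPM in WERI with DMSO. The Y79 cultures had 121, 161 and 130 CPM with THZ1 and 302, 302 and 288 CPM with DMSO. It fell by 0.87 ± 0.09 on the log2 scale in WERI (adjusted p = 1.49e-06) and by 1.11 ± 0.09 in Y79 (adjusted p = 1e-07), with no overlap of groups for either gene.

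CCT7 had 542, 514 and 547 CPM in WERI with THZ1 and 354, 379 and 364 CPM in WERI with DMSO. Y79 gave 787, 1186 and 750 CPM with THZ1 and 471, 471 and 482 CPM with DMSO. The log2 fold change was 0.55 ± 0.13 in WERI (adjusted p = 0.00257) and 0.93 ± 0.13 in Y79 (adjusted p = 2.6e-05), against -1.35 and -0.78 under mitochondrial scaling. CCT8 had 526, 508 and 532 CPM in WERI with THZ1 and 344, 349 and 327 CPM in WERI with DMSO. In Y79 it had 388, 542 and 373 CPM with THZ1 and 336, 342 and 323 CPM with DMSO. It was higher by 0.62 ± 0.11 in WERI (adjusted p = 0.000274) and by 0.38 ± 0.11 in Y79 (adjusted p = 0.00909), and lower in Y79 with library size alone (-0.20) and in both lines under mitochondrial scaling (-1.28 and -1.33).

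**Figure D3:**
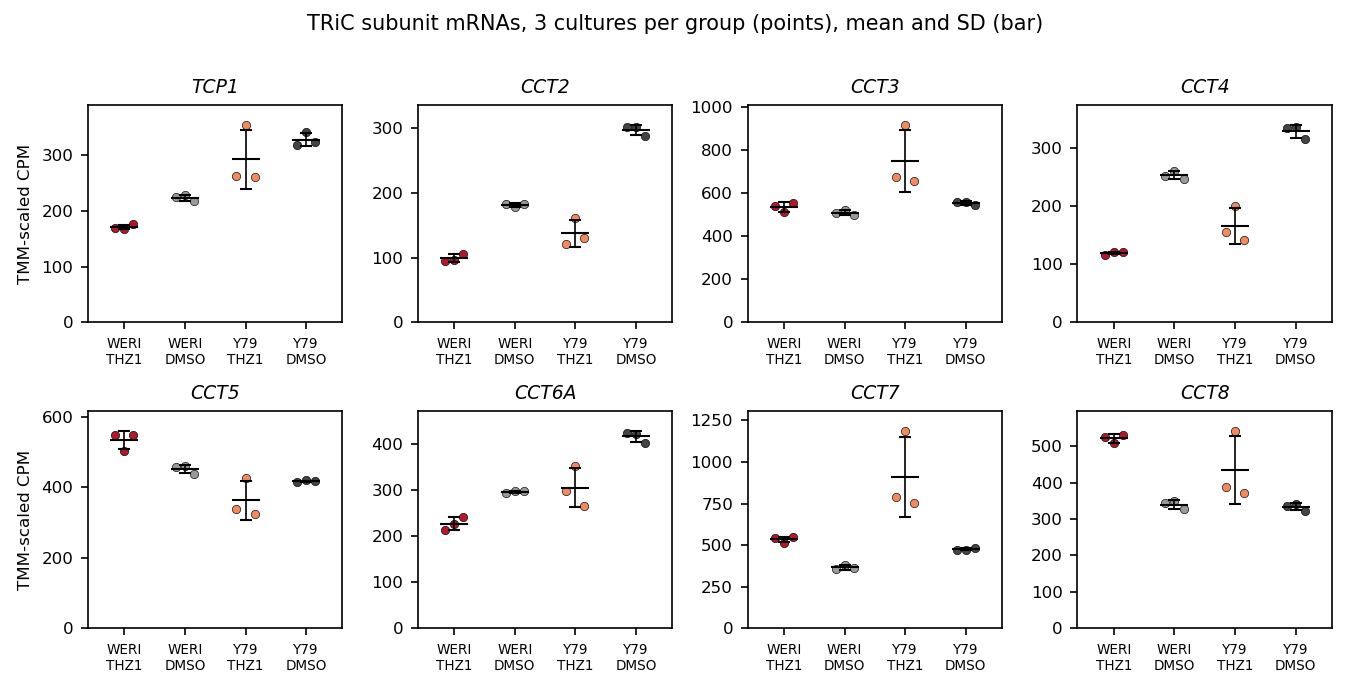
Level of 8 TRiC subunit genes (y axes, TMM-scaled CPM) in each culture (points) of the 4 groups, with the mean and SD. CCT2 and CCT4 were lower after THZ1 in both lines, and 1 Y79 culture with THZ1, replicate 2, was the highest of its group for every subunit shown.

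The other subunits changed less. CCT6A fell by 0.38 ± 0.09 on the log2 scale in WERI (adjusted p = 0.00203) and by 0.45 ± 0.09 in Y79 (adjusted p = 0.000556). TCP1, the first subunit described, fell by 0.38 ± 0.10 in WERI (adjusted p = 0.00405) and was at -0.16 ± 0.10 in Y79 (adjusted p = 0.168). CCT5 was at 0.24 ± 0.09 in WERI (adjusted p = 0.035) and -0.20 ± 0.09 in Y79 (adjusted p = 0.0705), and the sign in WERI turned with library size alone (-0.21). Apart from library size and mitochondrial scaling, the WERI call of CCT5 held in 7 of 18 alternatives, with an adjusted p of up to 0.115. Antisense transcripts overlap 30.1% of the exon bases of CCT5. CCT3 was at 0.08 ± 0.11 in WERI (adjusted p = 0.556) and 0.43 ± 0.11 in Y79 (adjusted p = 0.00258), and its sign in Y79 turned with library size alone (-0.15). CCT6B, a form of CCT6A made mainly in testis, had at most 1.41 CPM in any library and was not called in either line.

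THZ1 replicate 2 of Y79 was the highest library of its group for all subunits but CCT6B, and it decided several of these outcomes. Without it TCP1 (-0.35, adjusted p = 4.77e-06) and CCT5 (-0.36, adjusted p = 5.18e-06) were called lower in Y79, so that 5 TRiC genes were lower and 3 higher. Of all 15111 genes tested without that library, 6001 were lower and 4388 higher in Y79. CCT3 (0.23), CCT7 (0.67) and CCT8 (0.16) remained called higher with smaller values. CCT2 (-1.27), CCT4 (-1.17) and CCT6A (-0.59) were then lower by more.

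Ratios of subunits within a library give the same values in a form that does not depend on the scaling. The pairs were chosen from these values, so the ratios are a description and no separate test. Counts of CCT7 over CCT4 averaged 4.49 ± 0.192 in WERI with THZ1 and 1.44 ± 0.0355 in WERI with DMSO, and 5.42 ± 0.437 in Y79 with THZ1 and 1.45 ± 0.0701 in Y79 with DMSO. The DMSO ratios of the lines were thus alike, and no treated library came near them, the lowest being 4.28. Counts of CCT8 over CCT2 averaged 5.28 ± 0.262 in WERI with THZ1 and 1.88 ± 0.0857 in WERI with DMSO, and 3.14 ± 0.253 in Y79 with THZ1 and 1.12 ± 0.00919 in Y79 with DMSO. Counts of CCT3 over TCP1 averaged 3.13 ± 0.0684 in WERI with THZ1 and 2.27 ± 0.0160 in WERI with DMSO, and 2.55 ± 0.0443 in Y79 with THZ1 and 1.69 ± 0.0574 in Y79 with DMSO. These ratios are not corrected for transcript length and compare groups, not subunits. Pseudogenes named after TRiC genes number 4 for CCT6A, 2 each for CCT4, CCT5, CCT7 and TCP1, and 1 for CCT8. How reads shared with them were counted is not stated.

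Per kilobase of each gene's principal protein-coding transcript, chosen by annotation rank and then by length, the range between subunits widened. Leaving CCT6B aside, the lowest and highest levels in WERI with THZ1 were 47.2 CPM per kb for CCT4 and 279 for CCT7, and in WERI with DMSO 88.7 for CCT2 and 236 for CCT3. In Y79 with THZ1 they were 65.9 CPM per kb for CCT4 and 474 for CCT7, and in Y79 with DMSO 114 for CCT5 and 258 for CCT3. CCT4 and CCT2, at 47.2 ± 0.899 and 48.5 ± 2.89 in WERI with THZ1, did not differ beyond their spread. In Y79 with THZ1 the same pair, at 65.9 ± 12.3 and 67.4 ± 10.2, did not either. In DMSO, CCT2 (88.7 ± 1.43) and TCP1 (89.4 ± 2.10) did not differ beyond their spread in WERI, with CCT4 above them (101 ± 2.69). In Y79 with DMSO it was CCT4 (130 ± 4.48) and TCP1 (131 ± 4.86) that did not, with CCT2 above them (146 ± 3.91). Spearman's rho of genomic span and log2 fold change was -0.07 in WERI and -0.02 in Y79 over 43 DNAJ genes, and 0.23 and 0.47 over 9 TRiC genes, a description across genes of the same libraries.

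**Figure D4:**
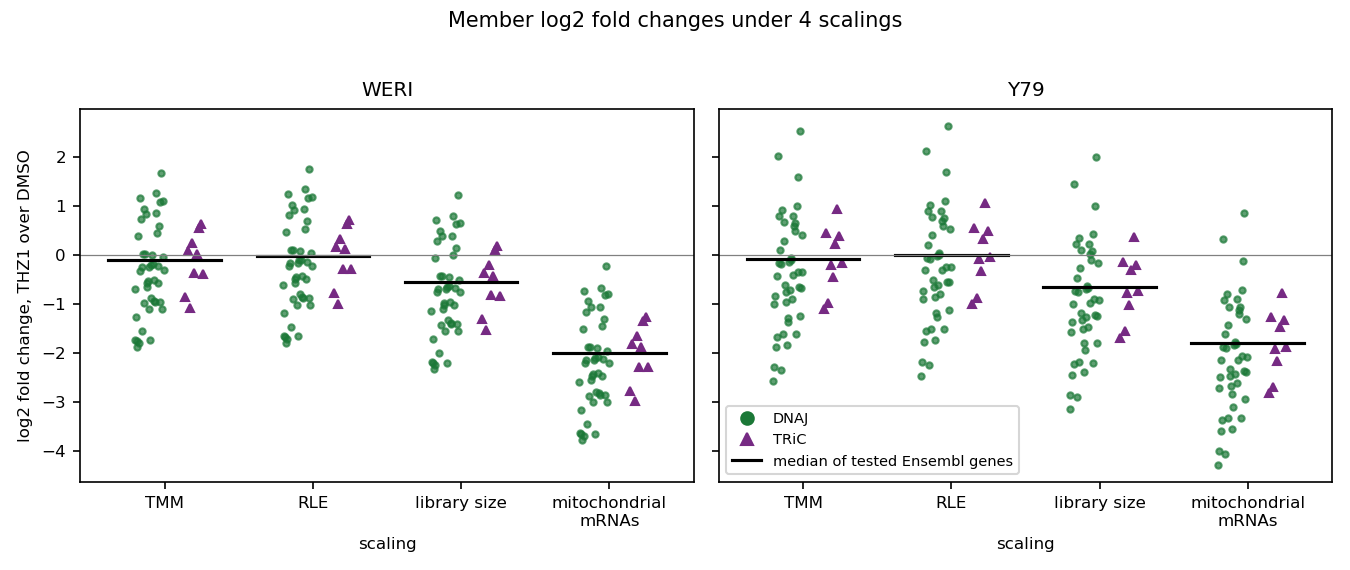
Log2 fold changes (y axis, THZ1 over DMSO) of the tested DNAJ genes (circles) and TRiC genes (triangles) in WERI and Y79 under 4 scalings, with the median of all tested Ensembl genes (line). That median was -0.11 in WERI and -0.09 in Y79 with TMM and -2.01 and -1.80 with scaling to mitochondrially encoded mRNAs, so that each scaling moved the genes together.

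In the absence of THZ1 the lines already differed. In DMSO, 9 of the 43 DNAJ genes were higher and 18 lower in Y79 than in WERI, against 64.9% of all genes called, 32.3% higher and 32.6% lower. Among these calls, that of DNAJC8 held in 4, that of DNAJC28 in 7, that of DNAJA1 in 12 and that of DNAJC4 in 14 of the 18 alternatives other than library size alone and mitochondrial scaling. Of the 9 TRiC genes 5 were higher, and the lowest of the abundant others, CCT5, was at -0.11 ± 0.09 (adjusted p = 0.295). Of all called genes 49.8% were higher in Y79 with TMM, 38.8% with library size alone and 29.97% with mitochondrial scaling. CCT2 was the TRiC gene with the widest gap, at 297 ± 7.98 CPM in Y79 and 181 ± 2.93 CPM in WERI (0.72 ± 0.09 on the log2 scale, adjusted p = 1.04e-05). TCP1 (0.55), CCT6A (0.49), CCT7 (0.38) and CCT4 (0.37) were the others. CCT7 lost its call without WERI THZ1 replicate 2, WERI DMSO replicate 1 or 3, or any 1 of the Y79 DMSO replicates (adjusted p up to 0.0742).

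At least 2-fold lower in Y79 were 7 DNAJ genes, against 18.3% of all genes, namely DNAJC15, DNAJC3, DNAJB2, DNAJC25-GNG10 and DNAJB4 and the sparse DNAJC22 and DNAJC5G. DNAJC3 averaged 27.7 ± 0.238 CPM in Y79 and 103 ± 4.20 CPM in WERI, a log2 difference of -1.90 ± 0.07 (adjusted p = 2.86e-11). DNAJB2 averaged 36.0 ± 2.02 CPM in Y79 and 118 ± 3.30 CPM in WERI, a log2 difference of -1.72 ± 0.11 (adjusted p = 9.28e-09). DNAJB4 differed by -1.09 ± 0.14 (adjusted p = 1.74e-05). After THZ1 the DNAJC3 gap was narrower, at 55.1 ± 1.42 CPM in Y79 and 88.4 ± 5.62 CPM in WERI. DNAJC2 was the DNAJ gene most above WERI, at 0.86 ± 0.07 (adjusted p = 2.03e-07) and so short of the 2-fold that 10.6% of all genes passed, followed by DNAJC11 and DNAJC12 at 0.76 each and DNAJC5 at 0.66, DNAJC11 and DNAJC12 being named after their values were seen.

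The difference between the lines' responses was tested as such. Of the 43 DNAJ genes 13 differed, 2 of them with a higher log2 fold change in Y79 than in WERI and 11 with a lower one, and 1 of 9 TRiC genes differed (CCT5, lower in Y79). Of all genes 22.0% differed, 8.74% with the higher change in Y79 and 13.2% with the lower. A difference of at least 2-fold was found for DNAJC3 and DNAJC22 in the higher direction and DNAJA1 in the lower, against 1.91% and 2.41% of all genes. Among all genes that differed, 39.8% had the higher change in Y79 with TMM, 21.5% with library size alone and 71.4% with mitochondrial scaling. Leaving out THZ1 replicate 2 of Y79 gave 17 DNAJ and 4 TRiC genes, with CCT2 (-0.37), CCT3 (0.19) and CCT8 (-0.43) added to CCT5 (-0.57). The calls rose over all genes as well. Without that library 2161 of 15111 genes had the higher change in Y79 and 3029 the lower. With all libraries these were 1299 and 1965 of 14865 genes. Of the 14 genes, DNAJA1, DNAJA2, DNAJB5, DNAJB9, DNAJB11, DNAJC3, DNAJC8, DNAJC14 and DNAJC30 kept the call in each of the settings other than library size and mitochondrial scaling.

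The partners of these genes were described from lists, fitted under TMM alone, so that higher means higher than the typical gene. Of 27 tested rows of HSP70 genes, their exchange factors and other partners, 5 were higher and 17 lower in WERI, against 27.7% and 37.2% of all genes, and Y79 had 9 higher and 14 lower, beside 29.9% and 38.5%. ST13, an HSP70-interacting protein, was higher in both lines (1.20 and 1.37), as were HSPA9 (0.67 and 0.65), the mitochondrial HSP70 that DNAJA3 serves, and HYOU1 (1.24 and 1.08), an exchange factor of BiP. HSPA4 (-0.95 and -1.38), an exchange factor of cytosolic HSP70, was lower in both. BiP itself, encoded by HSPA5, was at -0.10 in WERI (adjusted p = 0.331) and fell by 1.06 in Y79 (adjusted p = 1.45e-07), a difference of -0.95 ± 0.13 (adjusted p = 0.000242).

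Of the 10 tested cofactors of TRiC, 3 were higher and 5 lower in each line, and of all genes 27.7% were higher and 37.2% lower in WERI and 29.9% and 38.5% in Y79. The count of higher cofactors is thus near that of all genes. The prefoldin subunits PFDN5 (1.61 and 1.96) and VBP1 (1.58 and 1.28) were higher in WERI and Y79, and PFDN1, a subunit of the same complex, was lower (-0.91 and -1.20). TXNDC9, a regulator of TRiC, was lower by 1.18 in WERI and 2.07 in Y79. Of 12 tested clients (actins and tubulins), 7 were higher and 3 lower in WERI and 10 higher and 2 lower in Y79, beside the same shares of all genes, among them ACTB (0.24 and 0.63) and TUBB (0.52 and 0.48) as higher and TUBG1 (-1.24 and -1.93) as lower. Of the 2 genes of the mitochondrial chaperonin, HSPD1 was higher in both lines (0.41 and 0.49) and HSPE1 lower in WERI (-0.37, adjusted p = 0.0447). Among J-domain genes with other names, SEC63 was higher in both lines (0.79 and 0.69), HSCB was lower in WERI (-0.65), and GAK, a relative of auxilin, was not called. Of 3 tested heat shock factor genes, HSF2 was lower in both lines (-1.13 and -0.86), HSF4 higher in both (1.87 and 2.35), and HSF1 lower in WERI (-0.47, adjusted p = 0.000616) and at 0.04 in Y79 (adjusted p = 0.724), a difference of 0.51 ± 0.13 (adjusted p = 0.0165).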

How the data were processed

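Total RNA libraries were made with the NEBNext Ultra RNA kit, which does not mark strand, per the labels. The authors deposited 1 table of whole-number read counts per gene for 12 libraries; Cufflinks and GRCh38 are named in the submitters' processing notes, with aligner and counting settings not given in those sources. It lists 19974 Ensembl genes and 7531 unannotated loci. Counts were tested as deposited with edgeR 4.0.16 (R 4.3.3; TMM, filterByExpr, robust quasi-likelihood F tests, two-sided) on 18844 features, with 4 group means and 8 residual degrees of freedom, and p-values were adjusted by Benjamini-Hochberg over all features and, in each contrast, called under 0.05. Alternatives were RLE factors, library size, 13 mitochondrially encoded mRNAs, DESeq2 1.42.0, no filter, Ensembl genes only, the compared groups only, a replicate block and leaving out each library.

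The labels do not say whether cultures came from separate thaws, so p-values measure the spread between these cultures. Figures and sums used Python 3.11.15 and pandas 2.3.3. Genes named in full are all TRiC and DNAJA genes, DNAJB1, DNAJB6, DNAJB9, DNAJB11, DNAJC2, DNAJC3, DNAJC5, DNAJC6, DNAJC7 and DNAJC9, the DNAJ genes called at 2-fold or more with a mean log2 CPM of at least 1, and the extremes of a class; all other DNAJ genes with values were chosen after these were seen. The members and lists were chosen with earlier results of these data known. Positions are those of GRCh38, and promoters those of RefSeq. A gene of the partner lists is not reported here.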

Additional observations from a re-analysis of the deposited data

Results flagged for a closer look

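The response to THZ1 differed between the lines by a test of the difference itself (Y79 minus WERI, edgeR, adjusted p under 0.05) for 14 genes. The difference was -1.87 for DNAJA1, -0.55 for DNAJA2, -0.80 for DNAJB5, -0.65 for DNAJB9, -0.61 for DNAJC7 and -0.73 for DNAJC14, all of which fell in Y79 and, but for DNAJC7, also in WERI. It was -0.41 for DNAJC13 and -0.40 for DNAJC21, both lower in each line. For DNAJC8 it was -0.68, with a higher level after THZ1 in both lines under TMM and a lower one in both under mitochondrial scaling. The directions were opposite for DNAJC3, with a difference of 1.21, for DNAJB11 (-0.80) and for DNAJC30 (-0.94). It was -0.44 for CCT5 and 1.73 for DNAJC22, each called in WERI alone under the single-line tests. Leaving aside library size alone and mitochondrial scaling, the call held in 5 of 17 alternatives for CCT5, 8 for DNAJC7, 8 for DNAJC13, 2 for DNAJC21 and 5 for DNAJC22, with adjusted p up to 0.0865 for CCT5, 0.0738 for DNAJC7, 0.0766 for DNAJC13, 0.118 for DNAJC21 and 0.105 for DNAJC22. Most losses came on leaving out 1 library. A replicate block also ended the call of DNAJC13 (adjusted p = 0.0534), DNAJC21 (adjusted p = 0.077) and DNAJC22 (adjusted p = 0.0785). That of DNAJC21 was lost as well with RLE factors (adjusted p = 0.0737), with no filter (adjusted p = 0.0548) and with Ensembl genes only (adjusted p = 0.0508), that of CCT5 with RLE factors (adjusted p = 0.0515) and that of DNAJC22 with no filter (adjusted p = 0.0683).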

How the results depend on the processing

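Direction and call depended mainly on the scaling. With library size alone, DNAJ genes called higher numbered 5 in WERI and 5 in Y79, TRiC genes called higher 0 in WERI and 1 in Y79, and TRiC genes called lower 6 in Y79. That setting called 2221 of all 14865 genes higher and 7961 lower in WERI. In Y79 it called 2175 higher and 8334 lower. With mitochondrial scaling, no DNAJ or TRiC gene was called higher (0 in each line), while 40 DNAJ genes in WERI, 38 in Y79 and 9 TRiC genes in each line were called lower. Most genes were lower on this scale, at 13328 of all 14865 genes in WERI and 12188 in Y79. It called 111 genes higher in WERI and 283 in Y79. Differences between the lines' responses were called for 7 DNAJ genes under mitochondrial scaling. Among DNAJ and TRiC genes together, 9 lost the main call under it and 3 gained one. Of all 14865 genes, 1778 had the higher change in Y79 under it and 713 the lower. For TRiC genes there were 0 differences with RLE factors and 3 with library size alone. Those settings called 1344 and 740 of all genes with the higher change in Y79, and 1797 and 2696 with the lower. Between the DMSO lines, mitochondrial scaling called 3 DNAJ genes and 1 TRiC gene higher, and 1 TRiC gene lower, as did library size alone (1) and a fit of the compared groups only (1). Of all 14865 genes, mitochondrial scaling called 2706 higher and 6322 lower in Y79 than in WERI. The share of counts after THZ1 over that in DMSO, leaving out mitochondrial mRNAs and unannotated loci, was 0.703 for DNAJ and 0.843 for TRiC in WERI and 0.504 for DNAJ in Y79, against 0.639, 0.767 and 0.466 with all counts.

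Signs turned with library size alone in WERI for CCT3 (-0.37), CCT5 (-0.21), DNAJB11 (-0.077), DNAJB6 (-0.43) and DNAJC1 (-0.43), and in Y79 for CCT3 (-0.15), CCT8 (-0.20), DNAJB4 (-0.47) and DNAJC8 (-0.17). They turned with mitochondrial scaling in WERI for CCT3 (-1.82), CCT5 (-1.66), CCT6B (-1.88), CCT7 (-1.35), CCT8 (-1.28), DNAJB11 (-1.52), DNAJB13 (-0.74), DNAJB2 (-1.17), DNAJB6 (-1.88), DNAJB7 (-0.95), DNAJC1 (-1.88), DNAJC10 (-1.07), DNAJC25 (-1.06), DNAJC25-GNG10 (-0.67), DNAJC27 (-1.45), DNAJC30 (-1.31), DNAJC4 (-0.82), DNAJC5G (-0.23) and DNAJC8 (-0.81). In Y79 they turned for CCT3 (-1.28), CCT6B (-1.47), CCT7 (-0.78), CCT8 (-1.33), DNAJB2 (-0.92), DNAJB4 (-1.61), DNAJB7 (-0.79), DNAJC1 (-1.42), DNAJC10 (-1.06), DNAJC25 (-1.13), DNAJC25-GNG10 (-1.21), DNAJC27 (-1.08), DNAJC3 (-0.72), DNAJC4 (-0.13) and DNAJC8 (-1.30). The construction of these scalings, which set other transcripts to no change, moves all genes by about the same amount in a comparison.

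Leaving out 1 library gave 9 to 12 DNAJ genes higher and 19 to 23 lower in WERI, 10 to 11 higher and 20 to 23 lower in Y79, and 6 to 11 higher and 15 to 20 lower between the DMSO lines. For TRiC it gave 2 to 3 higher and 4 to 4 lower in WERI, 3 to 3 higher and 3 to 5 lower in Y79, and 4 to 6 higher and 0 to 1 lower between the DMSO lines. These fits tested 15049 to 15111 genes in all. Of all genes 3651 to 4350 were higher and 5134 to 6122 lower in WERI. In Y79 4047 to 4388 were higher and 5450 to 6001 lower. Between the DMSO lines 4265 to 5227 were higher and 4457 to 5500 lower. Differences between the responses then numbered 9 to 17 for DNAJ and 0 to 4 for TRiC. Among all genes 889 to 2161 had the higher change in Y79 and 1437 to 3029 the lower. Both upper counts came from the fit without THZ1 replicate 2 of Y79. With the replicate number as a block, 11 DNAJ genes were higher and 20 lower in WERI, and 10 higher and 21 lower in Y79. The replicate block gave 10 DNAJ genes and 1 TRiC gene that differed between the responses. Of all 14865 genes, it called 3984 higher and 5410 lower in WERI, and 4257 higher and 5634 lower in Y79. The responses differed for 1061 genes with the higher change in Y79 and 1707 with the lower. Deviations of same-numbered cultures from their group means had correlations from -0.0438 to 0.0147. With 3 cultures per group and counting noise in each feature, these values cannot decide whether same-numbered cultures shared a thaw or day. Outside library size and mitochondrial scaling, 33 of 41 calls in WERI and 36 of 38 in Y79 held in every alternative. Genes under 100 counts per library (CCT6B, DNAJA4, DNAJB13, DNAJC5G, DNAJC22) are limited by depth.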
